A study of Mus musculus with 8 samples.

Results

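Genes for the anchoring of basal keratinocytes to the basement membrane were followed in whole skin of newborn FVB mice: Itga6, Itgb4, Dst, Lama3, Lamb3, Itga3 and Itgb1. All probe sets whose single gene symbol in the platform annotation was one of these names were taken, which gave 18 of the 22626 tested probe sets and 7 of 12393 genes. Itgb1 had 6 probe sets, Dst 4, Itga3 3, Itga6 2, and Itgb4, Lama3 and Lamb3 1 each. The groups were pRb-/-;p107-/- skin, pRb-/-;p107+/+ skin, pRb+/+;p107-/- skin and pRb+/+ skin, with 2 Affymetrix arrays for each genotype and RNA pooled from 3 newborns of a genotype on each array. pRb, encoded by Rb1, and p107, encoded by Rbl1, are related proteins that bind E2F transcription factors and restrain the cell cycle. The labels do not give the p107 genotype of the pRb+/+ arrays, taken here as wild-type, nor the cells in which pRb was deleted, and the series title speaks of pRb-deficient epidermis.

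Hemidesmosomes are the rivets of the epidermis. In them an integrin made of the Itga6 and Itgb4 products spans the basal membrane of the keratinocyte, binds a laminin outside and is tied by plakins, the Dst product among them, to keratin filaments inside. Lama3 and Lamb3 encode chains of that laminin. The integrin of the Itga3 and Itgb1 products binds the same laminin but is linked to actin, and the Itgb1 chain pairs with many alpha chains in most cell types of skin. In whole skin RNA, fewer cells of a type and less RNA per cell cannot be told apart.

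The deposited values were standardized scores, scaled for each probe set to mean 0 and SD 1 across the 8 arrays. A score or a difference of 1 is therefore 1 SD of that probe set, and neither an expression level nor a fold change can be read from it. A score cannot exceed 2.47 in size, and levels of different genes cannot be compared. Whether the tissue expressed its defining markers cannot be read from such values either. Rb1 scored -1.56 and -1.28 on pRb-/-;p107-/- arrays, -0.22 and 0.36 on pRb-/-;p107+/+ arrays, 0.02 and 0.4 on pRb+/+;p107-/- arrays, and 1.21 and 1.07 on pRb+/+ arrays. It fell with loss of both proteins, with a difference of -2.56 ± 0.27 SD units (SE, limma, adjusted p = 0.0391). The Rb1 arrays of pRb-/-;p107+/+ and pRb+/+;p107-/- skin overlapped, and the difference for pRb loss where p107 was kept was -1.07 ± 0.27 (adjusted p = 0.266). A first Rbl1 probe set lay between -1.51 and 0.31 on the p107-/- arrays and between 0.08 and 1.3 on the others, so these overlapped, while the other lay between -1.53 and -0.13 against -0.02 to 1.4. The labels do not say whether these probe sets lie in deleted sequence.

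No probe set of the 7 genes passed an adjusted p of 0.05 in any comparison (limma linear model without moderation, Benjamini-Hochberg over all 22626 probe sets). Among the 4 genotypes together, 0 of 18 passed, against 1.28% of all probe sets, and 3 of 18 had an unadjusted p under 0.05, against 21.4%. The lowest adjusted p of a member in any comparison was 0.0955, for an Itgb1 probe set. limma's moderated test called 0 of all 22626 probe sets in each of the 9 comparisons, so its 0 of 18 says nothing about the members. The comparisons share arrays, since each genotype enters several of them. The labels do not say that the 2 arrays of a genotype are separate pools, so p-values measure the spread between arrays, which may be technical.

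**Figure D1:**
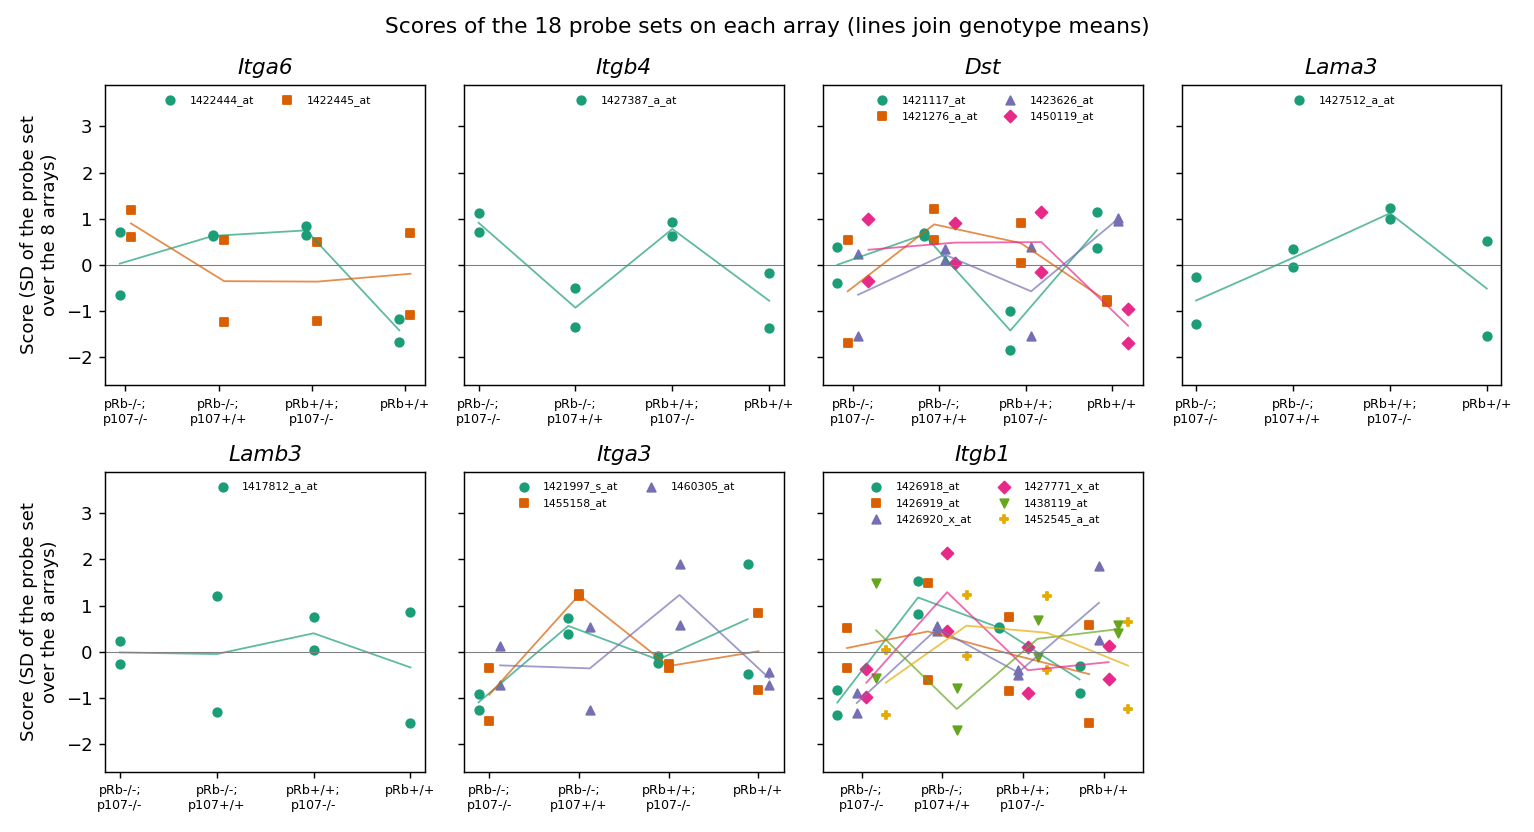
Scores of the 18 probe sets of the 7 genes on each array, in SD of the probe set over the 8 arrays (vertical axis), by genotype (horizontal axis), with 2 arrays per genotype as points and a line through the genotype means of each probe set. Itgb4 lies higher on the 4 p107-/- arrays, from 0.62 to 1.12, than on the other 4, and the probe sets of Dst, Itga3 and Itgb1 follow different courses within a gene.

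Itgb4, on mouse chromosome 11 at 115974725 to 116008412 (GRCm38.p6), encodes the beta chain whose long cytoplasmic tail recruits the plakins. Its only probe set, 1427387_a_at, scored 0.71 and 1.12 on pRb-/-;p107-/- arrays, -0.5 and -1.35 on pRb-/-;p107+/+ arrays, 0.94 and 0.62 on pRb+/+;p107-/- arrays, and -1.37 and -0.18 on pRb+/+ arrays. All 4 p107-/- arrays lay above the other 4, whereas arrays of pRb-/- and pRb+/+ skin overlapped at either p107 status. The difference for p107 loss was 1.84 ± 0.55 SD units in pRb-/- skin (SE, 95% interval 0.31 to 3.36, limma adjusted p = 0.206). The same difference measured in a pRb+/+ background was 1.55 ± 0.55 (interval 0.03 to 3.08, adjusted p = 0.251), and 0.96 without the first pRb+/+ array. For loss of both it was 1.69 ± 0.55 (adjusted p = 0.193), and 1.09 without that array. For pRb loss it was -0.15 where p107 was kept and 0.13 in p107-/- skin, with intervals of -1.67 to 1.38 and -1.39 to 1.66.

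A comparison of the 4 p107-/- arrays with the 4 others, averaged over both pRb backgrounds, was added after the values were seen. In it Itgb4 differed by 1.7 ± 0.39 SD units (limma, adjusted p = 0.108), the lowest adjusted p of the 18, and did not pass. The arrays of the 2 p107 statuses did not overlap for 2 of the 18 probe sets, Itgb4 and 1 of Itgb1, against 15.7% of all probe sets, and 0 of 18 passed against 3.04%. An unadjusted p under 0.05 was reached by 3 of 18, against 24.9%. The corresponding average for pRb loss gave 0 of 18 that passed, against 0.181%, 0 of 18 at an unadjusted p under 0.05, against 13.2%, and 0 of 18 without overlap, against 4.2%.

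Other measures moved with Itgb4. The mean score of 5 measured suprabasal keratinocyte markers of a list of 6 (Krt1, Krt10, Ivl, Lor and Flg) was 1.05 and 1.04 on pRb-/-;p107-/- arrays, -1.01 and -0.44 on pRb-/-;p107+/+ arrays, 0.45 and 0.18 on pRb+/+;p107-/- arrays, and -0.28 and -1 on pRb+/+ arrays. The same 4 arrays were thus highest in both. The mean of 4 basal keratinocyte markers (Krt5, Krt14, Krt15 and Trp63) was 0.46 and -0.17, -1.19 and -0.51, 0.59 and 0.21, and -0.03 and 0.62 in the same order of genotypes, so it was lowest in pRb-/-;p107+/+ skin. The 24 poly-A control probe sets, which detect RNA spiked in before labelling, averaged -0.96 to -0.55 on the 4 p107-/- arrays and 0.19 to 1.38 on the other 4. The 18 hybridization controls lay between -0.8 and -0.32 on the p107-/- arrays and between -0.03 and 2.05 on the others. The part of any of these in the Itgb4 difference was not tested.

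**Figure D2:**
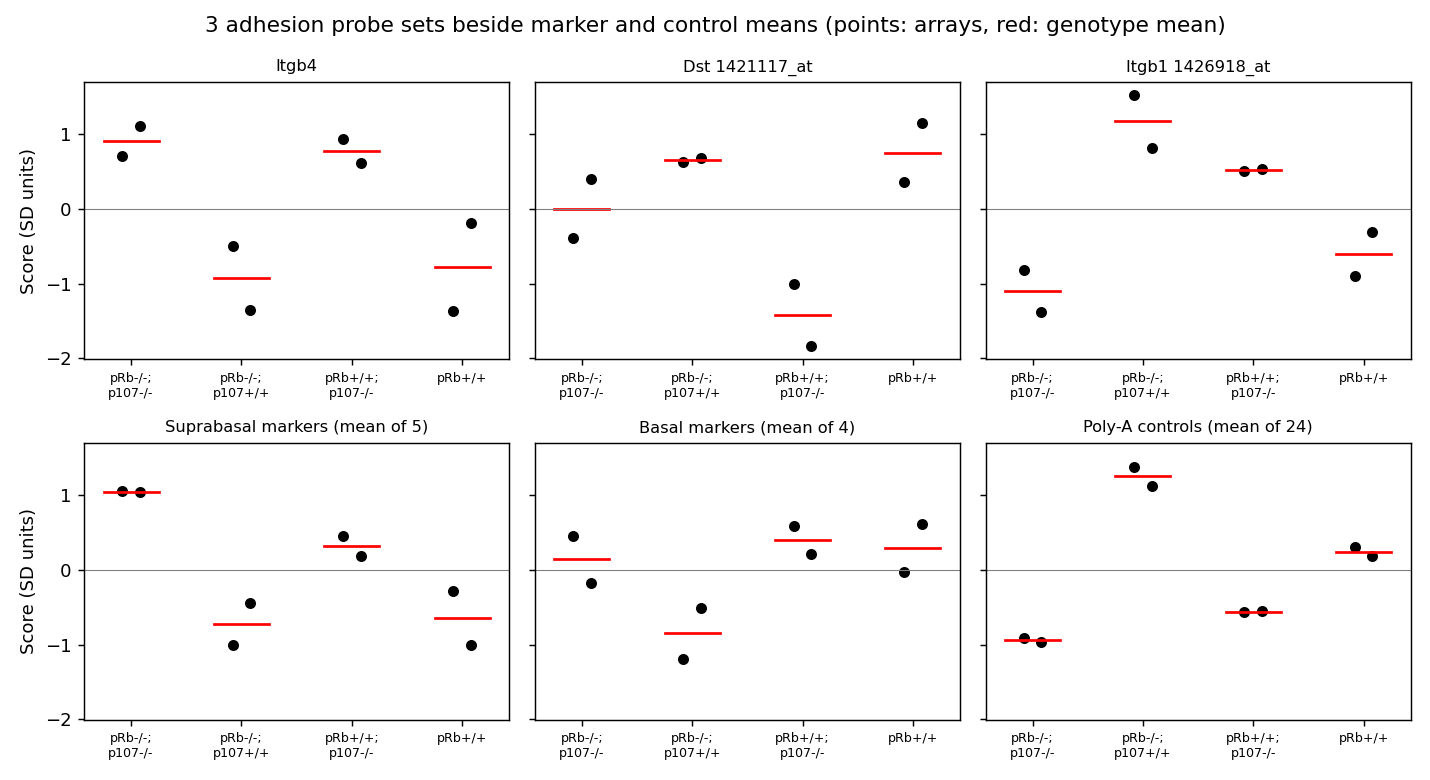
Scores in SD units (vertical axis) of Itgb4, 1 Dst probe set and 1 Itgb1 probe set, above the mean scores of suprabasal markers, basal markers and poly-A controls, by genotype (horizontal axis), with arrays as points and genotype means as red lines. Itgb4 and the suprabasal mean are higher on the 4 p107-/- arrays than on the other 4, and the poly-A controls are lower there.

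Itga6, on chromosome 2 at 71786886 to 71858427, encodes the alpha chain that pairs with Itgb4 in hemidesmosomes and can also pair with Itgb1. Its probe set 1422444_at scored 0.71 and -0.65 on pRb-/-;p107-/- arrays, 0.62 and 0.64 on pRb-/-;p107+/+ arrays, 0.65 and 0.85 on pRb+/+;p107-/- arrays, and -1.17 and -1.66 on pRb+/+ arrays. Both pRb+/+ arrays were the lowest of the 8, and the arrays of pRb-/-;p107-/- and pRb-/-;p107+/+ skin overlapped. The difference from pRb+/+ skin was 1.44 ± 0.51 SD units for loss of both proteins, 2.05 ± 0.51 for pRb loss and 2.17 ± 0.51 for p107 loss (SE, limma adjusted p = 0.221, 0.266 and 0.159). The first of these was 0.77 without the first pRb-/-;p107-/- array. The interaction, the pRb difference without p107 minus that with it, was -2.77 ± 0.73 (adjusted p = 0.271).

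The other Itga6 probe set, 1422445_at, was designed from the same sequence record and did not follow this course. It scored 1.19 and 0.61 on pRb-/-;p107-/- arrays, 0.54 and -1.24 on pRb-/-;p107+/+ arrays, -1.21 and 0.49 on pRb+/+;p107-/- arrays, and 0.7 and -1.08 on pRb+/+ arrays. The 2 arrays of each of the last 3 genotypes lay far apart, and neighbouring genotypes overlapped throughout. Across the 8 arrays the Itga6 probe sets had a Pearson r of 0.08, and their differences had the same sign in 1 of 6 comparisons. Itga6 averaged over both probe sets differed from pRb+/+ skin by 1.27 for loss of both, 0.94 for pRb loss and 1 for p107 loss, with adjusted p from 0.388 to 0.678. Itga6 probe set 1422444_at and Itgb4, whose products are partners in 1 receptor, had different orders of genotype means. For 1422444_at pRb+/+ skin alone was low, and for Itgb4 both genotypes with p107 were low. Probe set 1422445_at had its highest mean in pRb-/-;p107-/- skin, as Itgb4 did. No difference of either gene passed, so these orders are not established.

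Dst, on chromosome 1 at 33907888 to 34308662, encodes dystonin, whose epithelial form is the bullous pemphigoid antigen that links the hemidesmosome to keratin, while other forms serve nerve and muscle. RefSeq promoter windows of GRCm38.p6, cut here to the 250 bases before a start, were at hand for 4 of the 7 genes, in 7 windows. The Dst windows are printed because the gene has more than 1 listed start, both inside the gene's interval, and its probe sets disagree. Itga3 and Lamb3 also have more than 1 listed start, and Itga3 probe sets disagree too, but these windows are not printed. The Itgb1 window is printed because the lowest adjusted p among the 18 belongs to that gene. Capitals mark GGGCGG on either strand, the GC box, and the windows are chr1:34011345-34011594 and chr1:34160010-34160259 for Dst and chr8:128685404-128685653 for Itgb1, all on the plus strand.
Dst, upstream start: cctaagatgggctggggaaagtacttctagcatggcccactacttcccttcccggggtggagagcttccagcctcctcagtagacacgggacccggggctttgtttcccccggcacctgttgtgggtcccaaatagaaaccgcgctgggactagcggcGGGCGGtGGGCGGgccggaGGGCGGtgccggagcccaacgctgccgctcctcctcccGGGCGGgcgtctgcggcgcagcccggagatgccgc
Dst, downstream start: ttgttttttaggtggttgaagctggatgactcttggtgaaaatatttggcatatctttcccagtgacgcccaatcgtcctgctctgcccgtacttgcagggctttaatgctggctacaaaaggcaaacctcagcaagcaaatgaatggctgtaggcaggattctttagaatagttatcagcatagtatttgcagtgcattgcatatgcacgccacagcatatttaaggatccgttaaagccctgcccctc
Itgb1: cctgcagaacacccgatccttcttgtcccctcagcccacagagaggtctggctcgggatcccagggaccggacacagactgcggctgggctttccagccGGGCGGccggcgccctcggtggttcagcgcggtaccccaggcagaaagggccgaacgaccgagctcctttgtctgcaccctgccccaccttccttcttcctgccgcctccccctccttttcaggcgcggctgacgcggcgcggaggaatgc

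The upstream Dst window held 4 GC boxes, 22 CpG pairs and 68.8% G or C, and the downstream window held 0 GC boxes, 5 CpG pairs and 45.2% G or C. The Itgb1 window had 1 GC box, 21 CpG pairs and 68% G or C. E2F motifs were searched as TTTCCCGC, TTTCGCGC, TTTGCCGC and TTTGGCGC on both strands and occurred in 0 of the 7 member windows, against 1.86% of 32851 windows. The cell cycle homology element, as TTTGAA or TTCGAA, was found in 0 of 7 against 17.1%, and the AP-1 motif TGANTCA in 0 of 7 against 6.75%. A GC box was present in 4 of 7 windows, against 32.7% of all. These matches describe letters in these windows alone, and the annotation used here does not tie a probe set to a start.

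Of the 4 Dst probe sets, 1421117_at scored -0.39 and 0.4 on pRb-/-;p107-/- arrays, 0.63 and 0.69 on pRb-/-;p107+/+ arrays, -1 and -1.84 on pRb+/+;p107-/- arrays, and 0.36 and 1.15 on pRb+/+ arrays. Both pRb+/+;p107-/- arrays were the lowest of the 8. The difference for p107 loss was -2.17 ± 0.49 SD units in pRb+/+ skin (SE, 95% interval -3.54 to -0.81, limma adjusted p = 0.148), and without pRb it was -0.65 (adjusted p = 0.54). In p107-/- skin the difference for pRb loss was 1.43 ± 0.49 (adjusted p = 0.396).

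Probe set 1450119_at was designed from the same record and took the opposite sign for p107 loss in pRb+/+ skin, with a difference of 1.81 ± 0.77 (adjusted p = 0.31). It scored 1 and -0.34 on pRb-/-;p107-/- arrays, 0.92 and 0.05 on pRb-/-;p107+/+ arrays, 1.14 and -0.15 on pRb+/+;p107-/- arrays, and -1.68 and -0.95 on pRb+/+ arrays. The pRb+/+ arrays were the lowest here, and the other genotypes overlapped. In 1423626_at the pRb+/+ arrays were instead the highest, at 1.02 and 0.96, while 1421276_a_at had them at -0.76 and -0.81, below 5 of the other 6. The 6 pairs of Dst probe sets had r from -0.51 to 0.52, and the 2 probe sets of 1 record had r = -0.35 and the same sign in 1 of 6 comparisons. Averaged over its probe sets, Dst differed by -0.16 for p107 loss in pRb+/+ skin (adjusted p = 0.866), and the 1.43 for pRb loss in p107-/- skin became 0.03.

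Lama3, on chromosome 18 at 12333417 to 12583013, encodes the alpha chain of the hemidesmosomal laminin. Its probe set 1427512_a_at scored -0.27 and -1.27 on pRb-/-;p107-/- arrays, 0.35 and -0.04 on pRb-/-;p107+/+ arrays, 1.24 and 1 on pRb+/+;p107-/- arrays, and -1.54 and 0.52 on pRb+/+ arrays. Both pRb+/+;p107-/- arrays were the highest of the 8, and the pRb+/+ arrays spanned those of the 2 other genotypes. In p107-/- skin the difference for pRb loss was -1.89 ± 0.83 SD units (SE, limma adjusted p = 0.497). For p107 loss in pRb+/+ skin it was 1.63 ± 0.83 (adjusted p = 0.372), and 0.6 without the first or 2.67 without the second pRb+/+ array.

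Lamb3, on chromosome 1 at 193294353 to 193343878, encodes the beta chain of the same laminin and had the probe set 1417812_a_at. It scored 0.23 and -0.26 on pRb-/-;p107-/- arrays, 1.21 and -1.31 on pRb-/-;p107+/+ arrays, 0.76 and 0.04 on pRb+/+;p107-/- arrays, and -1.54 and 0.86 on pRb+/+ arrays. Neighbours in the order of genotype means overlapped throughout, the differences of the 5 pairwise comparisons lay between -0.41 and 0.74 SD units, and Lamb3 had an adjusted p of 0.965 over the 4 genotypes (limma F test), the highest of the 18.

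Itga3, on chromosome 11 at 95044475 to 95076844, encodes the alpha chain of the laminin receptor that sits outside hemidesmosomes. Its probe set 1455158_at scored -0.35 and -1.51 on pRb-/-;p107-/- arrays, 1.25 and 1.21 on pRb-/-;p107+/+ arrays, -0.35 and -0.27 on pRb+/+;p107-/- arrays, and -0.82 and 0.84 on pRb+/+ arrays. The pRb-/-;p107+/+ arrays were the highest of the 8. The difference for p107 loss in pRb-/- skin was -2.16 ± 0.72 SD units (SE, limma adjusted p = 0.237). Probe set 1421997_s_at had the pRb-/-;p107-/- arrays lowest, at -1.27 and -0.92, and a difference of -1.66 ± 0.86 in the same comparison (adjusted p = 0.39), with r = 0.76 between the 2 probe sets. The third, 1460305_at, had a difference of 0.06 there and was highest in pRb+/+;p107-/- skin, at 1.89 and 0.57. Averaged over the 3, Itga3 differed by -1.25 (adjusted p = 0.316).

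Itgb1, on chromosome 8 at 128685654 to 128733579, encodes the partner of the Itga3 chain. Its probe set 1426918_at had the lowest adjusted p over the 4 genotypes of the 18, 0.136 (limma F test). It scored -0.82 and -1.38 on pRb-/-;p107-/- arrays, 1.53 and 0.82 on pRb-/-;p107+/+ arrays, 0.51 and 0.54 on pRb+/+;p107-/- arrays, and -0.89 and -0.31 on pRb+/+ arrays. The arrays of pRb-/-;p107+/+ skin were highest and those of pRb+/+;p107-/- skin next, while pRb+/+ and pRb-/-;p107-/- arrays overlapped. p107 loss went with a difference of -2.27 ± 0.38 SD units in pRb-/- skin (SE, 95% interval -3.32 to -1.22, limma adjusted p = 0.0955) and of 1.13 ± 0.38 in pRb+/+ skin (interval 0.07 to 2.18, adjusted p = 0.238). pRb loss went with -1.62 ± 0.38 in p107-/- skin (adjusted p = 0.258) and 1.77 ± 0.38 where p107 was kept (adjusted p = 0.225). The interaction was -3.39 ± 0.54 (95% interval -4.88 to -1.9, adjusted p = 0.167), so neither the single differences nor their difference passed.

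Of the other Itgb1 probe sets, 1426920_x_at scored -0.9 and -1.32 on pRb-/-;p107-/- arrays, 0.46 and 0.55 on pRb-/-;p107+/+ arrays, -0.4 and -0.5 on pRb+/+;p107-/- arrays, and 0.26 and 1.86 on pRb+/+ arrays. All 4 p107-/- arrays lay below the other 4, and 15.7% of all probe sets were split by p107 status in either direction. The poly-A control means were also lower on the p107-/- arrays, at -0.96 to -0.55 against 0.19 to 1.38. Their part in this Itgb1 difference was not tested. For 1426920_x_at the difference for loss of both was -2.17 ± 0.58 SD units (SE, limma adjusted p = 0.149), and -1.37 without the second pRb+/+ array. For p107 loss in pRb-/- skin, 5 of the 6 Itgb1 probe sets had a negative difference, from -2.27 to -0.36, and 1438119_at had a positive one of 1.7, which was 2.73 without the first and 0.67 without the second pRb-/-;p107-/- array. Its arrays of pRb-/-;p107+/+ skin scored -1.7 and -0.78, where those of 1427771_x_at scored 0.45 and 2.13. Over the 15 pairs of Itgb1 probe sets, r across the 8 arrays was positive in 9, with a median of 0.16. Averaged over the 6, Itgb1 differed by -0.96 for p107 loss in pRb-/- skin (adjusted p = 0.314), and the interaction was -1.02 (adjusted p = 0.55).

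**Figure D3:**
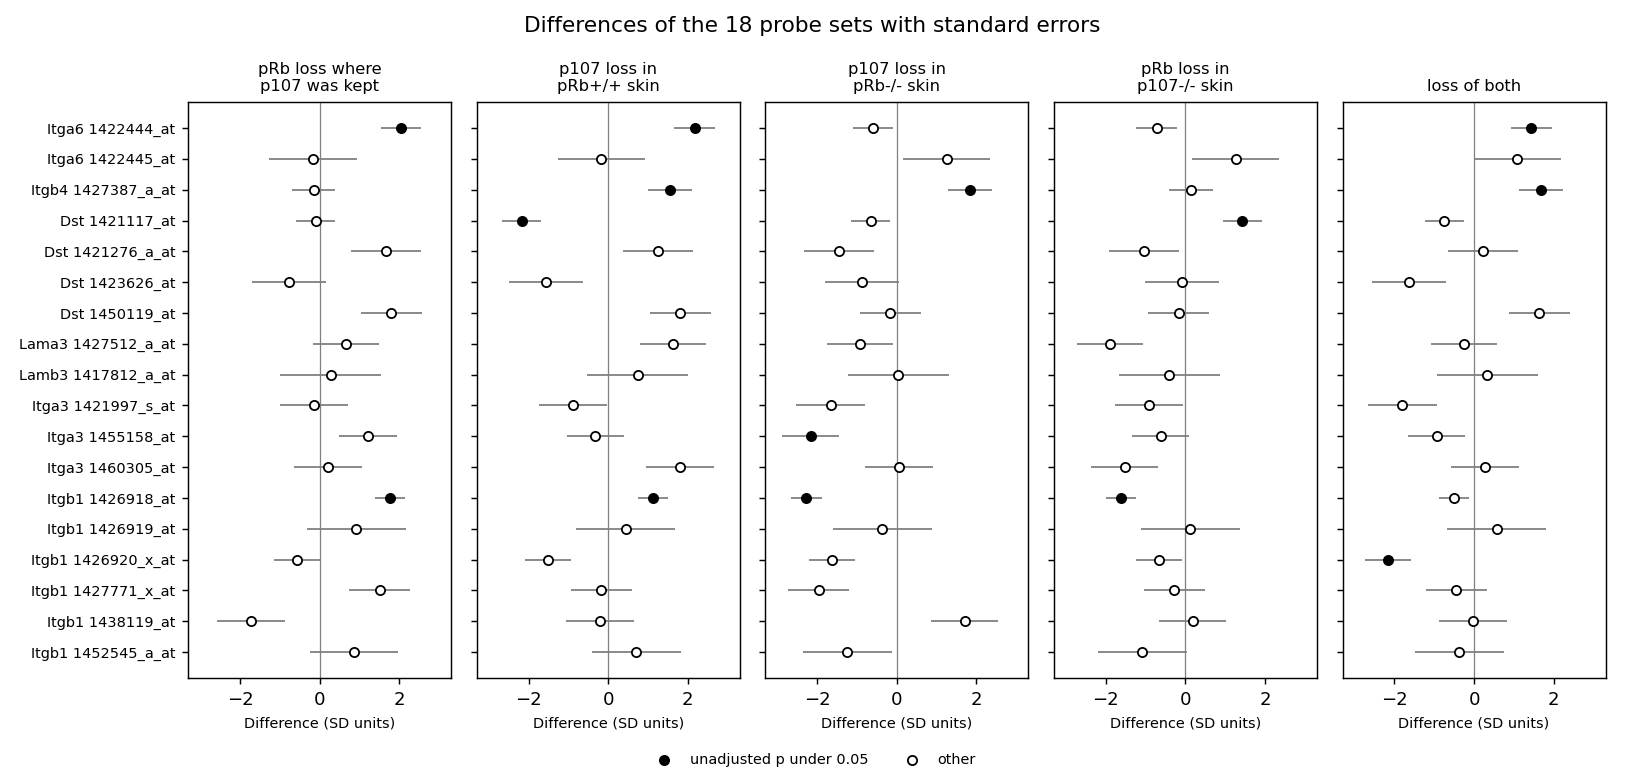
Difference between genotypes in SD units (horizontal axis) with its standard error for each of the 18 probe sets (rows) in 5 comparisons (columns), with filled points for an unadjusted p under 0.05. Filled points are few in each column, Itgb4 has them in the columns for p107 loss and loss of both, and probe sets of Dst, Itga3 and Itgb1 lie on both sides of 0.

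Over the members as a set, p107 loss in pRb-/- skin gave 5 of 18 positive differences and a median of -0.76 SD units, against 47.3% positive and a median of -0.1 over all probe sets. In that comparison 0 of 18 passed, against 1.37%, and 3 had an unadjusted p under 0.05, against 19.2%. For p107 loss in pRb+/+ skin, 10 of 18 were positive against 58.8%, with medians of 0.58 for the members and 0.35 for all probe sets. There 0 of 18 passed against 0.42%, and 4 of 18 reached an unadjusted p under 0.05 against 19.4%. The members' share at that level was near the share of the array in both. Since the 18 probe sets measure 7 genes and 6 of them 1 gene, they are not independent of each other.

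For pRb loss in p107-/- skin, 5 of 18 differences were positive against 37.4%, with medians of -0.52 and -0.33 SD units for the members and all probe sets. None of the 18 passed there (0 of 18, limma), against 0.256%, and 2 had an unadjusted p under 0.05, against 12.0%. For pRb loss where p107 was kept, 11 of 18 were positive against 53.7%, with medians of 0.48 and 0.12, and 0 of 18 passed against 0.0%, with 2 at an unadjusted p under 0.05 against 13.4%. For loss of both, 8 of 18 were positive against 52.3%, with medians of -0.14 and 0.1, and 0 of 18 passed against 2.94%, with 3 at an unadjusted p under 0.05 against 22.3%. The interaction had 0 of 18 that passed against 0.0%, 2 at an unadjusted p under 0.05 against 13.1%, 5 of 18 positive against 40.1%, and medians of -1.27 for the members and -0.44 for all probe sets. The arrays of the genotypes compared did not overlap for 8 of 18 probe sets in pRb loss where p107 was kept, against 40.4% of all probe sets. They did not overlap for 10 of 18 in p107 loss in pRb+/+ skin, against 57.3%, and for 11 of 18 in p107 loss in pRb-/- skin, against 51.1%. In pRb loss in p107-/- skin it was 8 of 18 against 50.9%, and in loss of both 6 of 18 against 55.4%, so with 2 arrays a group such separation was common over the array. In 108 differences of the 18 probe sets over these 6 comparisons, 16 had an unadjusted p under 0.05, and they came from 6 probe sets. Without 1 of the 8 arrays, 86 of the 108 differences moved by over 1.5 times or changed sign, and 44 changed sign.

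Probe sets of 1 gene often disagreed. Of the 25 pairs of probe sets of the same member, 14 had a positive r over the 8 arrays, or 56%, with a median r of 0.09. Over all 12821 such pairs on the array 63.2% were positive, with a median of 0.19. A low agreement between probe sets of a gene was thus seen over the whole table.

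Other genes of the adhesion machinery were read from 4 lists, with 1 probe set for each gene. Of the 3 hemidesmosome partners Col17a1, Plec and Cd151, 0 passed in any comparison (limma), while 2 had an unadjusted p under 0.05 in p107 loss in pRb-/- skin, against 19.2% of all probe sets, 1 in loss of both, against 22.3%, and 2 in the average for p107 loss, against 24.9%. Col17a1, the transmembrane collagen of hemidesmosomes, scored 1.12 and 1.09 on pRb-/-;p107-/- arrays, -0.32 and -1.12 on pRb-/-;p107+/+ arrays, 0.57 and 0.38 on pRb+/+;p107-/- arrays, and -1.66 and -0.06 on pRb+/+ arrays. As with Itgb4, all 4 p107-/- arrays lay above the other 4. Its difference for p107 loss was 1.82 ± 0.63 SD units in pRb-/- skin (SE, adjusted p = 0.252), and with pRb present it was 1.33 ± 0.63 (adjusted p = 0.349), and 0.54 without the first pRb+/+ array or 2.13 without the second. Plec, which encodes the plakin plectin, differed by -2.37 ± 0.56 for p107 loss in pRb-/- skin (adjusted p = 0.15), and its other probe set by -2.09 ± 0.42 (adjusted p = 0.119).

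Of 18 basement membrane genes 15 were measured, and 1 passed in a planned comparison (limma). It was 1 of 15 in p107 loss in pRb-/- skin, against 1.37% of all probe sets, and in loss of both, against 2.94%. In the F test it was 1 of 15 against 1.28%. The average for p107 loss added later had 1 higher and 1 lower of the 15, against 3.04%. Between 3 and 7 of the 15 had an unadjusted p under 0.05 in each of the 9 comparisons, against 12.0% to 24.9%. Nid1, which encodes nidogen, a linker of laminin and collagen networks, scored -1.16 and -1.23 on pRb-/-;p107-/- arrays, 0.86 and 0.52 on pRb-/-;p107+/+ arrays, -0.75 and -0.42 on pRb+/+;p107-/- arrays, and 1.12 and 1.06 on pRb+/+ arrays. It fell with p107 loss in pRb-/- skin, with a difference of -1.89 ± 0.17 SD units (SE, limma adjusted p = 0.0421), and with loss of both, at -2.29 ± 0.17 (adjusted p = 0.0224). Its other probe set differed by -1.74 ± 0.29 (adjusted p = 0.0937) and by 0.63 ± 0.29 (adjusted p = 0.307), so the sign was the same in the first comparison and opposite in the second. Without any 1 of the 8 arrays, the called probe set's difference lay between -2.05 and -1.72 for p107 loss in pRb-/- skin. For loss of both it lay between -2.32 and -2.26. Such a fit leaves 1 array in a genotype, so it cannot decide whether a call holds. Nid1 also passed in the average for p107 loss added later, at -1.78 ± 0.12 (adjusted p = 0.023), where its other probe set differed by -0.04 ± 0.2 (adjusted p = 0.924), and in the F test over the 4 genotypes (adjusted p = 0.0474). Without any 1 array that average lay between -1.87 and -1.7. Hspg2, which encodes the proteoglycan perlecan, passed in that average with a positive difference, at 1.73 ± 0.21 (adjusted p = 0.0468). Without any 1 array the Hspg2 difference lay between 1.55 and 1.91. Its other probe set differed by 0.96 ± 0.59 there (adjusted p = 0.387). The poly-A control means also split by p107 status, from -0.96 to -0.55 on the p107-/- arrays and from 0.19 to 1.38 on the others. Their part in the Nid1 and Hspg2 differences was not tested.

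Of 14 other integrin genes 12 were measured and 0 passed in any comparison (limma), against 0.0% to 3.04% of all probe sets over the 9 comparisons. Between 1 and 5 of the 12 had an unadjusted p under 0.05 in each, against 12.0% to 24.9% of all probe sets. The 2 with the lowest p over the 4 genotypes were Itga7, which encodes a laminin receptor chain of muscle, and Itga2, which encodes a collagen receptor chain of keratinocytes. Itga7 scored -1.46 and -1.03 on pRb-/-;p107-/- arrays, 1.29 and 1.02 on pRb-/-;p107+/+ arrays, 0.34 and 0.62 on pRb+/+;p107-/- arrays, and -0.76 and -0.03 on pRb+/+ arrays, the same order of genotypes as Itgb1 probe set 1426918_at. Its difference for p107 loss in pRb-/- skin was -2.4 ± 0.33 SD units (SE, adjusted p = 0.0729). Itga2 was lowest in pRb-/-;p107+/+ skin, at -1.49 and -1.55, with a difference of 2.01 ± 0.46 for p107 loss in pRb-/- skin (adjusted p = 0.143).

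Of 13 linkers between integrins and actin 10 were measured, and Tns1 and Vcl passed (limma). This was 1 of 10 in p107 loss in pRb-/- skin, against 1.37% of all probe sets, and 1 of 10 in loss of both, against 2.94%. In the average for p107 loss it was 1 of 10 against 3.04%. Between 1 and 5 of the 10 had an unadjusted p under 0.05 in each of the 9 comparisons, against 12.0% to 24.9%. Tns1, which encodes tensin, scored -0.86 and -1.39 on pRb-/-;p107-/- arrays, 1.46 and 1.32 on pRb-/-;p107+/+ arrays, and between -0.5 and 0.31 on the other 4. It fell with p107 loss in pRb-/- skin, with a difference of -2.52 ± 0.24 SD units (SE, limma adjusted p = 0.0442). Its other probe set differed by -2.31 ± 0.55 (adjusted p = 0.15). Without any 1 of the 8 arrays the called difference lay between -2.78 and -2.25. Tns1 also passed in the average for p107 loss, at -1.53 ± 0.17 (adjusted p = 0.0418), and between -1.66 and -1.4 without any 1 array. Its difference for p107 loss in pRb+/+ skin was -0.55 ± 0.24 (limma adjusted p = 0.32), so the average rested mostly on pRb-/- skin. The poly-A control means were -0.91 and -0.96 on pRb-/-;p107-/- arrays and 1.38 and 1.13 on pRb-/-;p107+/+ arrays. On the other 4 they lay between -0.57 and 0.3, so they had a course like that of Tns1. The part of this in the Tns1 differences was not tested. Vcl, which encodes vinculin, scored -1.32 and -1.42 on pRb-/-;p107-/- arrays, 1.05 and 1.17 on pRb+/+ arrays, and between -0.31 and 0.83 on the other 4. Its first probe set fell with loss of both, with a difference of -2.48 ± 0.31 (adjusted p = 0.0478). Its other probe set rose by 1.76 ± 0.22 in the same comparison (adjusted p = 0.0488), so the 2 probe sets of Vcl gave calls of opposite sign. Averaged, they differed by -0.36 (adjusted p = 0.355). Without any 1 of the 8 arrays the first difference lay between -2.54 and -2.42, and the second between 1.49 and 2.03. Such a fit leaves 1 array in a genotype, so it cannot decide whether a call holds.

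**Figure D4:**
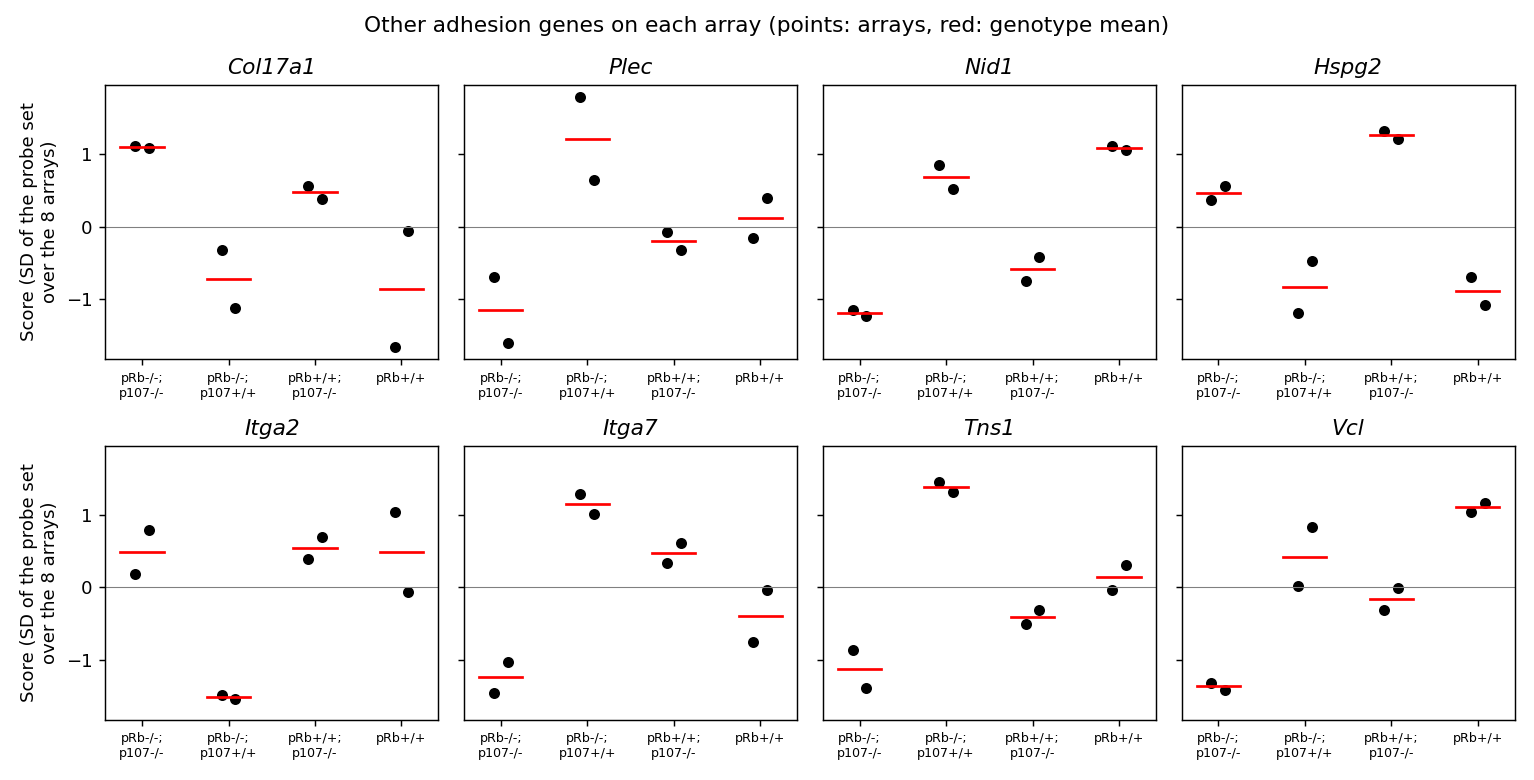
Scores of 8 other adhesion genes, 1 probe set each, by genotype (horizontal axis). The vertical axis is in SD of the probe set over the 8 arrays. Points are arrays and red lines are genotype means. Col17a1 and Hspg2 lie higher on the 4 p107-/- arrays than on the other 4, and Nid1 lies lower there. Plec, Tns1 and Itga7 are highest in pRb-/-;p107+/+ skin. Other probe sets are not drawn. That of Nid1 differed by 1.66 for p107 loss in pRb+/+ skin, and that of Vcl by 1.76 for loss of both.

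The median difference of a list was set beside that of all 12393 genes, each by 1 probe set. For p107 loss in pRb-/- skin it was 1.23 SD units for the 3 hemidesmosome partners, -0.6 for the basement membrane genes, -0.51 for the other integrins and -0.77 for the linkers, against -0.05 for all genes. For p107 loss in pRb+/+ skin it was 0.62, 0.65, 0.58 and -0.21 in the same order, against 0.4. For loss of both it was 0.72, -0.24, -0.04 and -1.22 in the same order, against 0.14. The 3 hemidesmosome partners did not move together. For p107 loss in pRb-/- skin Col17a1 differed by 1.82 and Plec by -2.37, so their median was the value of Cd151 alone. Markers of other cell types were read beside the lists. The mean of 6 fibroblast markers was -0.66 and -1.31 on pRb-/-;p107-/- arrays, 0.27 and 0.27 on pRb-/-;p107+/+ arrays, 1.08 and 0.64 on pRb+/+;p107-/- arrays, and -0.11 and -0.18 on pRb+/+ arrays. Both pRb-/-;p107-/- arrays, on which the first probe set of Nid1, Tns1 and Vcl was lowest, thus had the lowest fibroblast means. The second probe sets of Vcl and Nid1 scored higher there than on pRb+/+ arrays, by 1.76 and 0.63. The means of 6 endothelial, 6 skeletal muscle and 4 of 6 listed Schwann cell markers lay between -0.33 and 0.13 for the first 2 lists and between -0.63 and -0.52 for the third in pRb-/-;p107-/- skin, and between -0.7 and 0.51 on the other arrays for the 3. The 6 hair follicle keratins had means of -1.25 to -0.48 on the p107-/- arrays and 0.45 to 1.2 on the others. The part of these cell types in the differences was not tested.

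The genes most alike to each member were listed by Pearson r over the 8 arrays, among 12393 genes with 1 probe set each, as a description of arrays that share genotypes and pools. For Itgb4 they were Grb2, which encodes an adaptor of receptor tyrosine kinases (r = 0.984), and Chil1 (r = 0.982). Itgb1 probe set 1426918_at was closest to Nrap, which encodes an actin anchoring protein of muscle (r = 0.99), and to the glypican gene Gpc3 (r = 0.978). Itga6 probe set 1422444_at was closest to Rasgrf2 (r = 0.988) and Fam20b (r = 0.974). Itga3 probe set 1455158_at was closest to the mitotic survivin gene Birc5 (r = 0.981) and the cystine transporter gene Ctns (r = 0.967). The other Itga6 probe set had r = 0.08 with 1422444_at, and Itga3 probe set 1460305_at had r = -0.2 with 1455158_at. Lama3 was closest to Mpdz (r = 0.961) and Ptgfrn (r = 0.953), and Lamb3 to 1810058I24Rik (r = 0.986) and Zfp771 (r = 0.968). Dst probe set 1421117_at was closest to Eif2s3y, a gene of the Y chromosome (r = 0.938), and to the myoglobin gene Mb (r = 0.927), and the sex of the pooled newborns is not given in the labels. The r given are the highest among 12393 genes over 8 arrays, so their size alone shows no link between genes. None of the 7 lists named another member. This says little, since only the few genes of highest r were listed.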

How the data were processed

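Per the labels' protocols, total RNA from 30 mg of skin was labelled with biotin and hybridised to Affymetrix arrays. RMA is named in the submitters' processing notes, without a version. The authors deposited standardized scores, with mean 0 and SD 1 for each probe set over the 8 arrays, a step no label records, and no source used here gives whether log or linear values were standardized. The number of arrays limits the precision.

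Groups came from sample titles and symbols from the platform annotation. After 64 control probe sets were left out, 22626 were tested, of which 20380 had 1 symbol, 691 several and 1555 none. Linear models with a coefficient for each genotype were fitted with limma 3.58.1 in R 4.3.3, leaving 4 residual degrees of freedom. The t and F tests were unmoderated, because standardizing a probe set leaves them unaltered, which was checked on simulated data. The Benjamini-Hochberg adjustment ran over all 22626. The 7 planned comparisons were 5 pairs of genotypes, the interaction and the F test. The pair of pRb-/-;p107+/+ and pRb+/+;p107-/- skin was not compared. After the data were seen, 2 averages over backgrounds were added. The members, lists and tests were chosen with earlier results of these data known. Named genes were all members, every listed gene that passed, and otherwise the 2 of lowest F test p in a list. For lists, 1 probe set stood for a gene, by names ending in _at, then _a_at, _s_at and _x_at, then the lowest number. Alternatives were moderation, array centring, quantile normalization, the replicate block, averaging of a gene's probe sets, probe sets with 1 symbol alone and leaving out each array.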

Additional observations from a re-analysis of the deposited data

How the results depend on the processing

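Of 14 alternatives, 6 kept every array. In the original fit and under these 6, the count of member probe sets past the threshold was 0 in each of the 9 comparisons. The lowest adjusted p was 0.0648, for Itgb1 1426918_at in p107 loss in pRb-/- skin after quantile normalization. A fit without 1 array leaves 1 array in a genotype, so its count cannot decide the matter. Few probe sets passed over the whole array too. The original fit called 3.04% at most, in the average for p107 loss, and 0 for the interaction. The replicate block called 0 to 37 of 22626. A count of 0 of 18 was thus likely and says little about the members. All 19 member differences with an unadjusted p under 0.05 kept their sign in 266 recomputations, but many of these could not change it. Moderation, the replicate block and probe sets with 1 symbol alone leave a difference as it was. So does leaving out an array of a genotype that is not in the comparison. The 19 were also picked for a low p in these same data. Averaging the probe sets of a gene moved those of Dst, Itga3, Itga6 (except for loss of both) and Itgb1 by more than 1.5 times, for example Itgb1 1426918_at for p107 loss in pRb+/+ skin, 1.13 alone and 0.06 averaged. Replicate numbers did not pair the arrays: deviations of same-numbered arrays from their genotype means correlated between -0.131 and 0.105 across probe sets. With the replicate block 0 member probe sets passed, and Itgb4 had an adjusted p of 0.202 in the average for p107 loss. Over the array, 666 probe sets passed for loss of both in the original fit, whereas the block gave 37, the moderated test 0, quantile normalization 370, averaging of probe sets 400 genes, and leaving out an array 0 to 242. All 9 calls of Nid1, Tns1, Vcl and Hspg2 were lost under moderation and the block. Moderation called 0 probe sets over the array in every comparison, so that loss was fixed in advance. The block called 2 over the array for p107 loss in pRb-/- skin, against 310 in the original fit. In the average for p107 loss it called 34 against 687, and in the F test 3 against 289. Such losses were thus not particular to these genes. The positive call of Vcl's other probe set reversed to -0.36 with probe sets averaged. Recomputing that call and the F test of Nid1 was chosen after the data were seen. Scores hold no signal over background, so dim probe sets could not be told from bright ones.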
